A study of Mus musculus with 15 samples.

Results

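The enteric nervous system is the network of neurons and glia in the wall of the gut, and 8 of its marker genes were followed here through stomach development: Sox10, Ret, Ednrb, Elavl4, Tubb3, Nos1, Chat and Vip. They were chosen by symbol from the 44788 gene symbols measured, and were read apart as genes of progenitors, of all neurons and of transmitters. Whole stomachs of C57BL/6 mice were collected at E12.5 to E18.5 (embryonic days), D1, D3 and D5 (days after birth) and W1, W2, W3, W6 and W8 (weeks after birth). One RNA-Seq transcriptome was made per timepoint, 15 in all, and the labels name no treatment or mutation. The study's reporting summary states that stomachs of 3 embryos were pooled per sample from E12.5 to E14.5 and of 2 embryos from E15.5 to E17.5. It adds that sex was not distinguished up to W2 and that later samples were male. The timepoints were grouped by birth and weaning into a fetal (E12.5 to E18.5, n = 7), a suckling (D1 to W2, n = 5) and a weaned stage (W3 to W8, n = 3). The timepoints of a stage served as its replicates, so the spread within a stage includes change with age.

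Enteric neurons and glia descend from neural crest cells that migrate into the gut wall, multiply and then differentiate. Ret is the receptor tyrosine kinase that receives GDNF (with the co-receptor Gfra1) and neurturin (with Gfra2), and Ednrb is the receptor for endothelin 3. Both pathways are required for the colonization of the gut, and Sox10 is the transcription factor that crest progenitors and glia keep while neurons lose it. Elavl4 encodes the neuronal RNA-binding protein HuD, and Tubb3 the neuronal class of beta tubulin. Nos1 makes nitric oxide and Vip encodes vasoactive intestinal peptide, which together relax gut muscle, while Chat makes acetylcholine, the main excitatory transmitter of the gut.

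All values are FPKM (fragments per kilobase of transcript, normalized to the mapped fragments of a sample), which are per length and so can be set side by side between genes. Relative sequencing depth ranged from 0.702 (E16.5) to 1.17 (W6) of that at E12.5, and the deposited confidence bounds of each value cover counting error only. The sum of FPKM was 745538 to 894008 in fetal, 840297 to 963430 in suckling and 1043158 to 1344957 in weaned samples. The median difference of all 16902 tested genes was -0.22 between suckling and fetal and -0.62 between weaned and fetal samples on the log2(FPKM + 1) scale. Each test was therefore also run after median-ratio scaling, which brings these medians to 0.01. Whole stomach was measured, so that fewer cells of a type and less RNA per cell cannot be told apart.

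In fetal stomachs the order of the mean FPKM was Tubb3, Ednrb, Sox10, Ret, Elavl4, Vip, Nos1 and Chat. Tubb3 was the highest of the 8 at each of the 7 fetal timepoints, with 32.8% to 46.4% of their summed FPKM. Vip held 1.16% of that sum at E12.5 and 10.7% at its fetal highest. Vip moved up the order both before and after birth: its rank was 6 at E12.5, 3 at E17.5, 4 at E18.5 and 3 at D1. It held 16.6% to 42.4% of the sum in suckling and 33.2% to 43.5% in weaned samples. It was the highest of the 8 at W2 and at all 3 weaned timepoints, although its own value fell from 31.7 FPKM at W2 to 6.33 at W8. Neighbours in the order mostly overlapped within 1 SD over timepoints; the exceptions were Ednrb above Sox10 in fetal, Sox10 above Ret in suckling and Tubb3 above Ednrb in weaned samples, and the gap above Chat, which was last throughout. The plot of the 8 genes by age shows 3 shapes, apart from Chat, which stayed low. Sox10, Ret, Ednrb, Elavl4 and Tubb3 declined from a highest value between E12.5 and E15.5, which Ednrb, Elavl4 and Tubb3 reached by a rise. Nos1 rose to E18.5 and then declined, and Vip had a rise that lasted to W2.

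**Figure D1:**
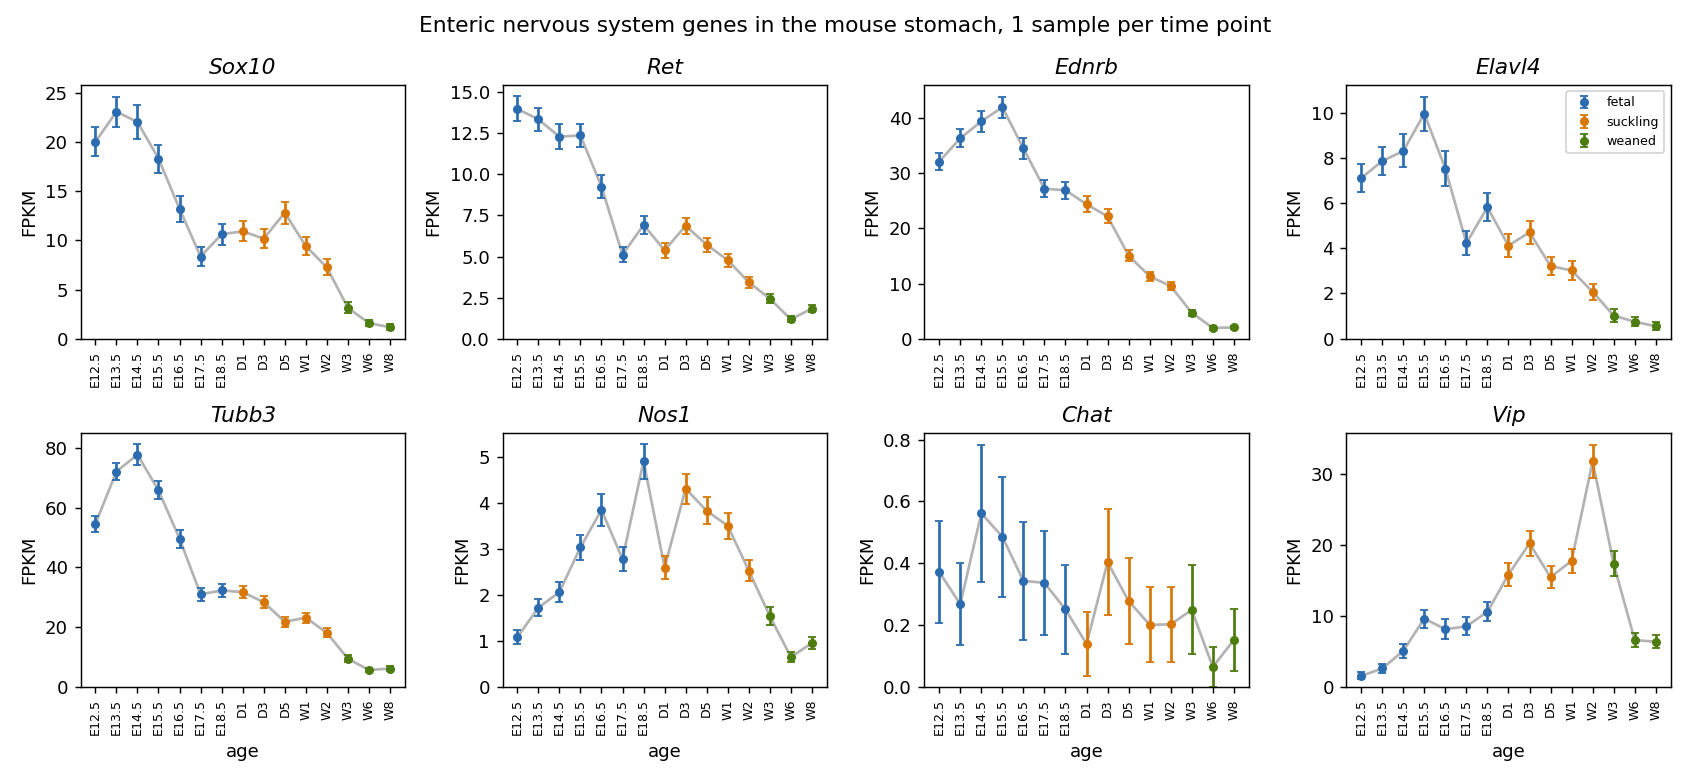
FPKM of the 8 genes (vertical axes, linear from 0, a scale for each gene) at the 15 ages (horizontal axes), with 1 sample per age, coloured by stage, and bars for the deposited confidence bounds. Sox10, Ret, Ednrb, Elavl4 and Tubb3 were highest between E12.5 and E15.5, Nos1 at E18.5 and Vip at W2, while Chat stayed at or below 0.561 FPKM.

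Among the progenitor genes, Sox10 (chr15:79154909-79165235, GRCm38) ranged from 8.36 FPKM at E17.5 to 23.1 at E13.5 in fetal stomachs, with a median of 18.3. It stood at 10.9, 10.2, 12.8, 9.42 and 7.26 at D1, D3, D5, W1 and W2, and at 3.14, 1.58 and 1.17 at W3, W6 and W8. The suckling samples lay within or just under the fetal range, and the weaned samples lay below all others. From fetal to suckling the log2 difference was -0.60 ± 0.25 (SE; adjusted p = 0.0485; -0.34 after scaling, adjusted p = 0.205), which did not pass the threshold of 0.01. With E17.5 and E18.5 counted as suckling, as in the phases of the study's proteome, it was -0.89 and passed (adjusted p = 0.000591). With E18.5 alone counted as suckling, as in the phases of the study's transcriptome, it did not pass. From suckling to weaned stomachs Sox10 fell by 1.94 ± 0.31 on the log2 scale (adjusted p = 0.000459), and by 1.55 ± 0.27 after scaling (adjusted p = 0.000906).

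Ret (chr6:118151748-118197744) ranged from 5.12 FPKM at E17.5 to 14.0 at E12.5 in fetal samples, with a median of 12.3. Its suckling values were 5.38, 6.87, 5.72, 4.78 and 3.44, and its weaned values 2.44, 1.17 and 1.83. The fetal values above 9 were all from E12.5 to E16.5, and E17.5 and E18.5 lay at the suckling level. Ret was lower in suckling than in fetal stomachs by a log2 difference of -0.84 ± 0.23 (adjusted p = 0.00622) and lower in weaned than in suckling stomachs by -1.15 ± 0.28 (adjusted p = 0.00475). After scaling these differences were -0.59 (adjusted p = 0.0209) and -0.75 (adjusted p = 0.0243), and neither passed the threshold.

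Ednrb (chr14:103814615-103844476) was the most abundant of the 3, between 26.9 FPKM at E18.5 and 42.0 at E15.5 in fetal samples, with a median of 34.5. It then stood at 24.4, 22.2, 15.1, 11.3 and 9.53 in suckling and at 4.69, 1.95 and 2.03 in weaned samples. As deposited, no suckling value reached the fetal range, and no weaned value reached the suckling range. Ednrb fell by 1.07 ± 0.23 on the log2 scale from fetal to suckling (adjusted p = 0.00171) and by a further 2.15 ± 0.29 to weaned stomachs (adjusted p = 0.000214). After scaling these differences were -0.80 (adjusted p = 0.00573) and -1.71 (adjusted p = 0.000354), and both passed. Between fetal and weaned stomachs its log2 difference of -3.23 ± 0.27 was the largest in size of the 7 genes tested, against a median of -0.62 for all tested genes. Melanocytes also use Ednrb and Sox10, and 6 of their markers summed to 1.43 to 2.88 FPKM in fetal, 2.39 to 4.44 in suckling and 2.91 to 4.08 in weaned samples. Of these, Tyr and Tyrp1 were below 0.1 FPKM and Mlana was listed at 0 in every sample, Dct reached 0.225, Pmel ranged from 0.431 to 1.92 and Mitf from 0.767 to 2.97. Mitf was higher in weaned than in fetal stomachs by 0.71 (adjusted p = 0.00111), and the part of these cells in the results was not tested.

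Of the pan-neuronal genes, Elavl4 (chr4:110203737-110351945) ranged from 4.23 FPKM at E17.5 to 9.95 at E15.5 in fetal samples, with a median of 7.52. Suckling stomachs gave 4.11, 4.71, 3.21, 3.02 and 2.07, and weaned stomachs 1.02, 0.749 and 0.549. Of the suckling samples only D3 exceeded the lowest fetal value, that of E17.5, and the weaned samples stood below all others. Elavl4 was lower in suckling than in fetal stomachs by a log2 difference of -0.90 ± 0.18 (adjusted p = 0.00113; -0.66 after scaling, adjusted p = 0.00460). It was lower again in weaned stomachs, by -1.29 ± 0.23 (adjusted p = 0.000741; -1.01 after scaling, adjusted p = 0.00190).

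Tubb3 (chr8:123411564-123422010) had fetal values from 31.0 FPKM at E17.5 to 77.8 at E14.5, with a median of 54.5. It measured 31.7, 28.3, 21.8, 23.1 and 18.0 in suckling and 9.38, 5.57 and 6.07 in weaned samples. Only D1 reached the lowest fetal value, and all weaned values were below all suckling values. Before birth Tubb3 had already come down to 31.0 at E17.5 and 32.2 at E18.5. Tubb3 fell by 1.07 ± 0.24 on the log2 scale from fetal to suckling (adjusted p = 0.00198) and by 1.68 ± 0.30 from suckling to weaned stomachs (adjusted p = 0.000794). After scaling these differences were -0.80 (adjusted p = 0.00570) and -1.15 (adjusted p = 0.00344), and both passed. The ratio of Tubb3 to Elavl4 within a sample, which no scaling of the sample changes, had a median of 7.32 in fetal, 7.67 in suckling and 9.18 in weaned stomachs, with overlapping ranges.

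Of the transmitter genes, Nos1 and Vip took another course. Nos1 (chr5:117780979-117958840) ranged from 1.08 FPKM at E12.5 to 4.91 at E18.5 in fetal samples, with a median of 2.78. It stood at 2.60, 4.31, 3.83, 3.50 and 2.53 in suckling and at 1.54, 0.645 and 0.950 in weaned samples. Among the fetal timepoints Nos1 was lowest at the first, its suckling values lay within the fetal range, and its weaned values lay below the suckling range. As deposited, its values at W6 and W8 were also below that at E12.5. The difference from fetal to suckling was 0.26 ± 0.23 (adjusted p = 0.327; 0.45 ± 0.23 after scaling, adjusted p = 0.108). From suckling to weaned stomachs it was lower by a log2 difference of -1.09 ± 0.28 (adjusted p = 0.00617), and after scaling by -0.78 ± 0.28, which did not pass (adjusted p = 0.0412). An antisense transcript annotated in GENCODE M21 shares 268 of the 11151 exon bases of Nos1, and no source states whether strand was used in counting.

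Vip (chr10:5639193-5647617) ranged from 1.51 FPKM at E12.5 to 10.6 at E18.5 in fetal samples, with a median of 8.09. Its suckling values were 15.8, 20.2, 15.4, 17.7 and 31.7, and its weaned values 17.3, 6.56 and 6.33. Every suckling sample was above every fetal sample, W2 was the highest of all, and of the weaned samples W3 was at the suckling level while W6 and W8 were at the fetal level. Vip rose by 1.62 ± 0.38 on the log2 scale from fetal to suckling stomachs (adjusted p = 0.00287; 1.84 ± 0.38 after scaling, adjusted p = 0.00170). Without the W2 sample the difference was 1.45 and its adjusted p of 0.0103 no longer passed. The difference from suckling to weaned was -1.03 ± 0.48 (adjusted p = 0.0846; -0.49 after scaling, adjusted p = 0.434), and that from fetal to weaned 0.60 ± 0.45 (adjusted p = 0.245; 1.35 ± 0.45 after scaling, adjusted p = 0.0158).

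Chat (chr14:32408203-32465909) was measured at very low levels, from 0.25 to 0.561 FPKM in fetal samples with a median of 0.343. It stood at 0.138, 0.403, 0.277, 0.201 and 0.202 in suckling and at 0.249, 0.0639 and 0.151 in weaned samples. If the deposited bounds are Poisson, between 4 (W6) and 25.8 (E14.5) fragments lay behind a value, and the bounds of 9 other timepoints overlapped those of its highest, while those of D1, W1, W2, W6 and W8 did not. Every weaned value lay below every fetal value, as in 52.8% of tested genes, the nearest being 0.249 at W3 and 0.25 at E18.5. After scaling this did not hold, with 0.327 at W3 and 0.228 at E18.5. The log2 difference from fetal to weaned was -0.25 (exact two-sided permutation p = 0.0167 over 120 splits), and -0.10 after scaling. Chat was the only one of the 8 genes that did not reach 1 FPKM and was not among the tested genes. The vesicular acetylcholine transporter Slc18a3, whose gene lies inside that of Chat on the same strand without sharing exon bases, was more abundant, with 1.72 to 2.88 FPKM in fetal, 2.53 to 3.34 in suckling and 0.934 to 1.47 in weaned samples. The choline transporter Slc5a7 reached 0.926 to 2.06, 0.798 to 1.57 and 0.344 to 0.602 in the same stages.

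The 300 bases around the start site (250 before and 50 after it, RefSeq, GRCm38.p6) of Vip and Tubb3 are shown because these genes differed in opposite directions between fetal and suckling stomachs. Here and below, "across birth" stands for that comparison of stage means and not for a change at birth itself. They lie at chr10:5638968-5639267 (plus strand) and chr8:123411303-123411602 (plus strand). Capitals mark the letters of a REST half-site (GGACAGC) or a SOX site (ACAAAG or ACAATG) on either strand; REST is a repressor of neuronal genes, and Sox10 belongs to the SOX family.
Vip: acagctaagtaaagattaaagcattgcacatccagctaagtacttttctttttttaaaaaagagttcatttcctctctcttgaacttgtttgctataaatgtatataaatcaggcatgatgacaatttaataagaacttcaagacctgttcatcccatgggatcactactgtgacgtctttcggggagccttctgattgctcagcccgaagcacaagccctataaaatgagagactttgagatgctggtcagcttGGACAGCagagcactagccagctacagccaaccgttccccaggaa
Tubb3: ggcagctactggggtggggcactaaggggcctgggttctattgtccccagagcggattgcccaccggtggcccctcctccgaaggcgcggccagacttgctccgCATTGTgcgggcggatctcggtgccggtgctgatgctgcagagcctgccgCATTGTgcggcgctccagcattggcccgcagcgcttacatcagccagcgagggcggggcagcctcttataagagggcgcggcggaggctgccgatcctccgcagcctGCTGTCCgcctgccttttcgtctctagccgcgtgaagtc
The GGACAGC letters start at base 6 after the start site of Vip, and their reverse complement starts at base 12 in Tubb3; 6.56% of all 32851 promoters in the table hold them. Tubb3 also holds 2 matches to the SOX site, at -146 and -96, which 28.6% of all promoters hold at least once. Of the 6 genes with a promoter in the table, Elavl4 has 4 start sites, of which 1 holds a SOX site and 2 overlapping ones hold the homeobox core TAATTA (5.29% of all promoters) and the E-box CAGCTG (16.3%). Chat holds 1 E-box, and the windows of Ednrb and Nos1 hold none of these letters.

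Across birth, 5 of the 7 tested genes passed the threshold, 1 higher (Vip) and 4 lower (Ret, Ednrb, Elavl4 and Tubb3) in suckling stomachs, where 41.4% of all tested genes passed, 10.8% higher and 30.6% lower. After scaling, 1 was higher and 3 were lower, where 32.2% of all genes passed, 17.2% higher and 15% lower. As deposited, ranges of the stages did not overlap for Ednrb (every suckling value lower, as for 20.9% of tested genes) and Vip (every suckling value higher, as for 6.63%). After scaling Ednrb was higher at D1 (24.0) than at E17.5 (23.7), while the ranges of Vip still did not overlap. Among all genes called, 26% were higher as deposited and 53.5% after scaling, so that the direction of a typical gene depends on the scale, while the directions of these 7 did not. Exact two-sided permutation tests over the 792 splits of the timepoints gave p = 0.00126 for Ednrb, the smallest that they can give, 0.00253 for Vip, 0.00379 for Elavl4 and for Tubb3, 0.0126 for Ret, 0.0505 for Sox10 and 0.321 for Nos1. Without W2, 3 of the 7 remained past the threshold (Ednrb, Elavl4 and Tubb3), and Ret lost its call in 12 of the alternatives.

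From suckling to weaned stomachs, 6 of the 7 genes were lower by the test and Vip was not called, where 31.4% of all tested genes passed, 28.9% lower and 2.57% higher. After scaling 4 genes were lower (Sox10, Ednrb, Elavl4 and Tubb3) where 20.6% of all genes passed, 7.77% lower and 12.8% higher, and 62.3% of the called genes were then higher, compared with 8.19% as deposited. With W3 counted among the suckling timepoints, Sox10, Ednrb and Tubb3 passed. In all 6 called genes every weaned value lay below every suckling value, as in 46.5% of tested genes. The exact two-sided permutation p was 0.0179 for each of the 6 genes, the smallest that 56 splits allow, and 0.0536 for Vip. Relative to the median of all tested genes, the fall was deepest for Ednrb (-1.74 on the log2 scale) and Sox10 (-1.53), and that of Nos1 was -0.68.

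Between the outer stages, 5 genes were lower in weaned than in fetal stomachs, where 65.2% of all tested genes passed, 54.6% lower and 10.6% higher. In the same 5 genes every weaned value lay below every fetal value, as in 52.8% of tested genes. The log2 differences were -2.54 for Sox10, -1.99 for Ret, -3.23 for Ednrb, -2.19 for Elavl4 and -2.75 for Tubb3, with adjusted p from 9.42e-07 to 1.14e-05. After scaling they were -1.88, -1.34, -2.51, -1.67 and -1.95, and all 5 still passed, where 54.3% of all genes did, 25.4% lower and 28.9% higher. Nos1 gave -0.83 ± 0.27 (adjusted p = 0.0111; -0.33 after scaling, adjusted p = 0.282). By the moderated F test over the 3 stages all 7 tested genes passed, as did 67.9% of all genes, and after scaling all but Nos1 (adjusted p = 0.0509) did so, where 58.2% of all genes passed.

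**Figure D2:**
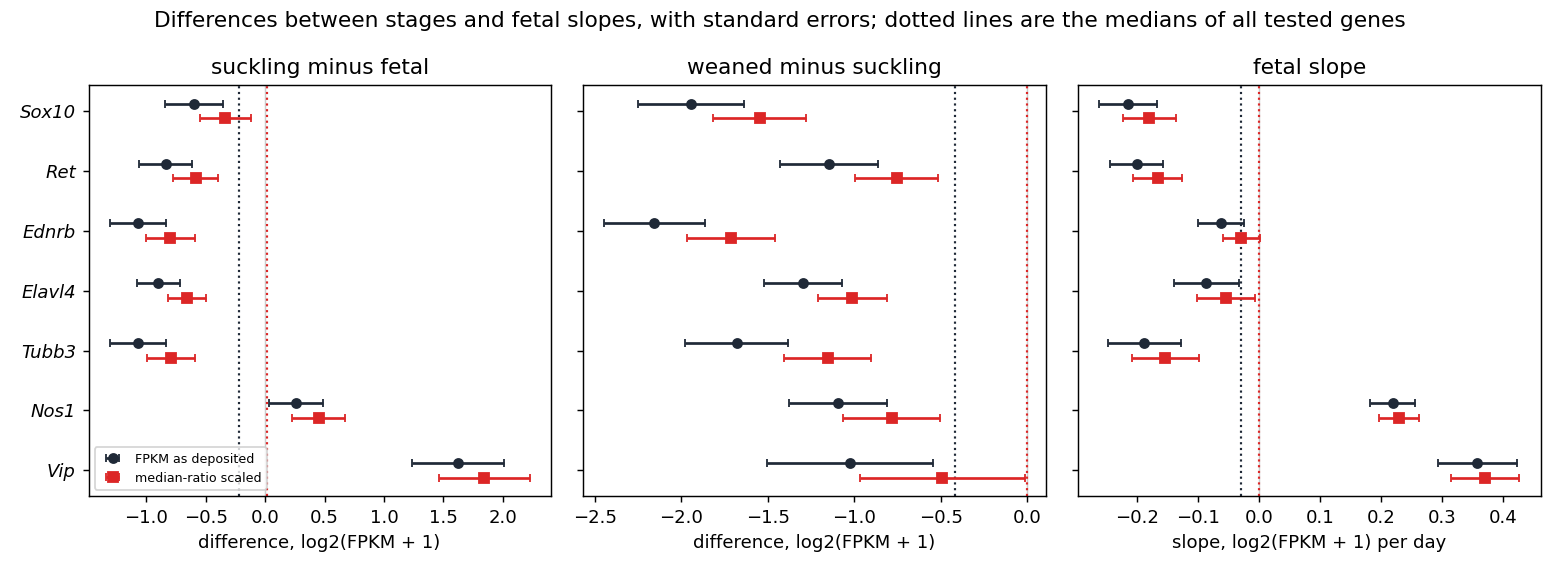
Differences of mean log2(FPKM + 1) between stages (left and middle) and slopes per embryonic day over the 7 fetal samples (right) for the 7 tested genes, with bars for the standard error, as deposited (circles) and after median-ratio scaling (squares). Dotted lines are the medians of all tested genes on each scale; Vip lies above them in the left and right panels and the 5 progenitor and pan-neuronal genes lie below them in all 3.

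Within the fetal stage, the slope over embryonic days was positive for both tested transmitter genes and negative for the other 5. Nos1 rose by 0.22 ± 0.04 per day on the log2 scale (adjusted p = 0.00262) and Vip rose by 0.36 ± 0.06 per day (adjusted p = 0.00364), and both passed after scaling with 0.23 and 0.37. Sox10 fell by 0.21 ± 0.05 per day (adjusted p = 0.00790) and Ret fell by 0.20 ± 0.04 per day (adjusted p = 0.00760), and neither passed after scaling (adjusted p = 0.0125 and 0.0122). The slopes of Ednrb, -0.06 ± 0.04, Elavl4, -0.09 ± 0.05, and Tubb3, -0.19 ± 0.06, did not pass. The 2 higher and 2 lower calls stand beside 39.3% of all tested genes, 14.3% higher and 25% lower, with 36.3% of the called genes higher as deposited and 50.4% after scaling. After scaling 2 were higher and none lower, where 36.2% of all genes passed, 18.3% higher and 18% lower. With 7 samples the calls rest on single timepoints: without E18.5 none of the 4 passed, and without E13.5 only Nos1 did. The slopes without E18.5 were 0.21 for Nos1 (adjusted p = 0.0188), 0.41 for Vip (adjusted p = 0.0101), -0.24 for Sox10 (adjusted p = 0.0247) and -0.23 for Ret (adjusted p = 0.0224). Without E12.5 the slope of Tubb3 was -0.29 and passed (adjusted p = 0.00647).

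The highest values came in sequence: Ret at E12.5, Sox10 at E13.5, Tubb3 at E14.5, Ednrb and Elavl4 at E15.5, Nos1 at E18.5 and Vip at W2. The same ages were highest after scaling. Counting bounds separated the highest timepoint from all others for Elavl4 and Vip only; for Ret, Sox10, Tubb3, Ednrb and Nos1 they overlapped those of 1 other timepoint (E13.5, E14.5, E13.5, E14.5 and D3). From highest to lowest timepoint the fold was 19.8 for Sox10, 21.5 for Ednrb, 18.1 for Elavl4, 14.0 for Tubb3, 11.9 for Ret, 7.61 for Nos1 and 20.9 for Vip. After scaling it was 27.5 for Vip and between 5.26 and 11.1 for the other 6.

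Ratios within a sample do not depend on how samples are scaled. By these ratios Vip and, with overlapping ranges, Nos1 gained on Elavl4. Elavl4 itself fell more than the median of all tested genes, so a typical gene gained on it too. Between fetal and weaned stomachs the log2 differences were -2.19 for Elavl4, -0.83 for Nos1 and 0.60 for Vip, with a median of -0.62. There Nos1 lay below the median and Vip above it, while across birth (median -0.22) both lay above it, with 0.26 and 1.62. The ratio of Vip to Elavl4 had a median of 0.964 in fetal samples (0.213 to 2.01), 4.80 in suckling (3.84 to 15.3) and 11.5 in weaned samples (8.77 to 16.9). The suckling range did not overlap the fetal one, and all 3 weaned ratios were above 4 of the 5 suckling ratios. The ratio of Nos1 to Elavl4 went from a median of 0.305 (0.152 at E12.5 to 0.845 at E18.5) to 1.16 in suckling (0.631 to 1.22) and 1.50 in weaned samples (0.862 to 1.73). Its fetal and suckling ranges overlapped at D1, and its suckling and weaned ranges overlapped as well. Vip also gained on Nos1, with medians of 2.15, 5.06 and 10.2 and no overlap between fetal and suckling samples. The ratio of Sox10 to Elavl4 was 1.98, 3.12 and 2.13 by median with overlapping ranges. That of Ednrb to Sox10 was 2.29, 1.31 and 1.49. That of Chat to Elavl4, which rests on few fragments of Chat, was 0.0488, 0.0856 and 0.243, with overlap between neighbouring stages.

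**Figure D3:**
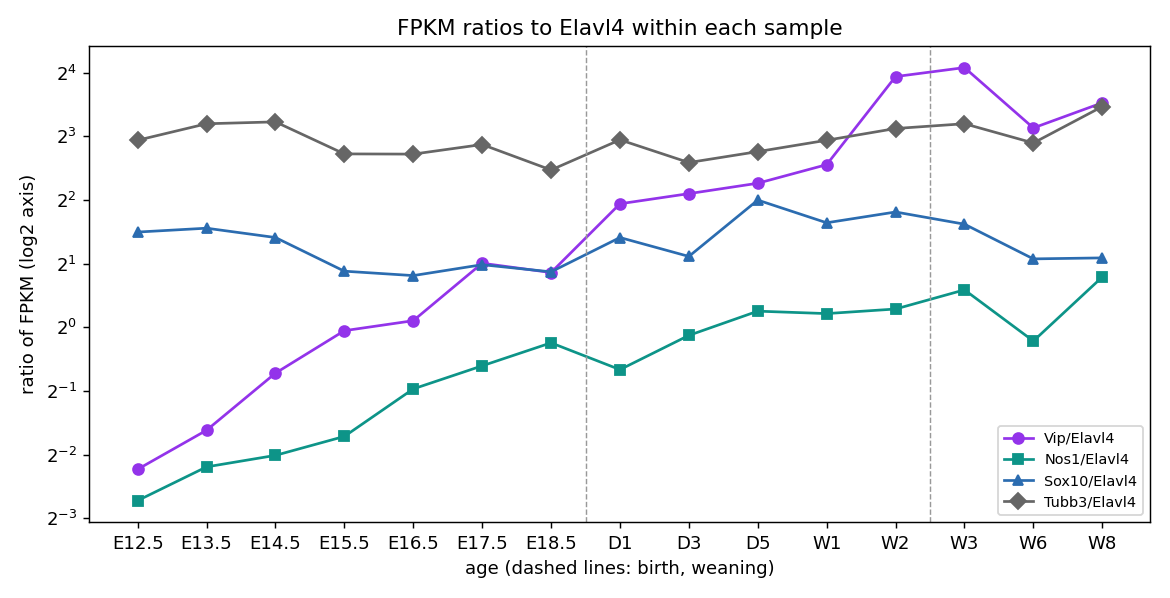
Ratio of the FPKM of Vip, Nos1, Sox10 and Tubb3 to that of Elavl4 (vertical axis, log2) in each of the 15 samples by age (horizontal axis), with dashed lines at birth and weaning. The Vip ratio climbs from 0.213 at E12.5 to 16.9 at W3 and the Nos1 ratio from 0.152 to 1.73 at W8, while the Tubb3 ratio stays between 5.55 and 11.1.

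Other genes of these pathways were read from lists. Among 9 ligands and other receptors, 1 was higher and 3 were lower in suckling than in fetal stomachs, with a median difference of -0.36 (-0.22 over all tested genes), and after scaling 1 was higher and 1 lower. Of all tested genes 10.8% were higher and 30.6% lower, and 17.2% and 15% after scaling. Gfra1 fell from 29.6 ± 21.8 FPKM (SD, n = 7) in fetal to 5.39 ± 1.45 (n = 5) in suckling samples (log2 difference -1.85, adjusted p = 0.00718), and was already at 5.38 at E17.5. It did not pass the threshold after scaling (adjusted p = 0.0144). Gdnf, the ligand it presents to Ret, measured 12.7 FPKM at E12.5 and 1.89 at E17.5, with a difference across birth of -1.24 (adjusted p = 0.0101, and 0.0219 after scaling). Nrtn, which encodes another Ret ligand, neurturin, rose from 22.7 ± 8.86 to 55.1 ± 2.18 (log2 difference 1.33, adjusted p = 0.000401) and passed after scaling too. Edn3, the ligand of Ednrb, was lower by -0.88 (adjusted p = 0.00300; -0.63 and adjusted p = 0.0128 after scaling). Ece1, which processes it, had 29.2 ± 1.87 in fetal and 27.7 ± 2.30 in suckling samples (adjusted p = 0.479).

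Of 10 transcription factors of crest cells and neuroblasts, 9 were tested and Tfap2b did not reach 1 FPKM. Across birth 6 were lower and none higher (median -0.82; 4 lower after scaling), where 30.6% of all tested genes were lower (15% after scaling). From suckling to weaned stomachs 8 were lower (5 after scaling), where 28.9% of all tested genes were (7.77% after scaling). The most abundant, Hand2 and Hoxb5, are also made in gut mesenchyme. Hand2 went from 64.1 ± 20.1 to 44.9 ± 10.8 FPKM across birth (adjusted p = 0.112), and Hoxb5 from 18.9 ± 6.00 to 10.1 ± 2.93 (adjusted p = 0.00724).

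Among 14 other pan-neuronal genes, 2 were higher and 4 lower across birth, on both scales, and 8 were not called (median -0.59), where 10.8% of all tested genes were higher and 30.6% lower (17.2% and 15% after scaling). The 4 that fell were Map2, Dcx, Elavl3 and Elavl2, with log2 differences from -1.11 to -0.77, where Dcx marks migrating young neurons and Map2 dendrites. The 2 that rose were Snap25, higher by 0.88 (adjusted p = 0.00551) and Syp, higher by 0.67 (adjusted p = 0.00698), both genes of synaptic vesicles and their release, as is Syt1, which had a difference of -0.20 (adjusted p = 0.169). The most abundant of the list, Uchl1 and Gap43, had differences of -0.20 (adjusted p = 0.403) and -0.90 (adjusted p = 0.0186). From suckling to weaned stomachs 9 of the 14 were lower, and 5 after scaling, where 28.9% and 7.77% of all tested genes were.

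Of 8 other enzymes and transporters of transmitters, 6 were tested. Ache, which degrades acetylcholine, was the only one called across birth as deposited, higher by 0.62 (adjusted p = 0.00924), and by 0.85 after scaling. After scaling Slc18a3 was called higher too (0.38, adjusted p = 0.0042), and none was lower on either scale. Of all tested genes 10.8% were higher and 30.6% lower, and 17.2% and 15% after scaling. Slc18a2, the vesicular monoamine transporter, had 3.36 ± 0.567 FPKM in fetal and 3.39 ± 1.01 in suckling samples (adjusted p = 0.968). Slc17a6 and Gad2, genes of glutamate and GABA neurons, stayed below 0.1 FPKM in every sample.

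Of 10 other neuropeptide genes, 8 were tested, and across birth 3 were higher, none lower and 5 not called, with a median of 0.72 against -0.22 for all tested genes. After scaling 4 were higher, and of all tested genes 10.8% were higher as deposited and 17.2% after scaling. Grp, gastrin-releasing peptide, rose by 2.34 on the log2 scale (adjusted p = 0.00166), from 4.86 ± 3.58 to 23.5 ± 9.13 FPKM. Nmu rose by 2.17 (adjusted p = 0.00134), from at most 0.247 FPKM in fetal samples to 2.27 to 8.38 in suckling ones, and Npy rose by 1.56 (adjusted p = 0.00766). All 3 passed after scaling. The most abundant ones, Penk and Cartpt, were at 29.1 to 34.7 FPKM and at 16.9 ± 3.33 FPKM (SD, n = 7) in fetal samples, with differences across birth of -0.29 (adjusted p = 0.111) and 0.55 (adjusted p = 0.0301; 0.81 and adjusted p = 0.00432 after scaling).

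Among 11 genes of glia and Schwann cells, 10 were tested, and 5 were higher across birth and none lower (median 0.60; 7 higher after scaling), where 10.8% of all tested genes were higher (17.2% after scaling). Entpd2, an ectonucleotidase that glia carry, rose by 1.94 (adjusted p = 0.00163), from 5.47 ± 3.88 to 19.6 ± 3.40 FPKM. Scn7a was higher by 0.76 (adjusted p = 0.000705), and Gfap and S100b were among the genes called higher. Fabp7, a gene of glial progenitors and the most abundant of the list, had a difference of -0.89 across birth (adjusted p = 0.0139), and its fall from suckling to weaned stomachs by 2.48 (adjusted p = 0.000267) passed on both scales. Mbp had a difference of 0.65 across birth (adjusted p = 0.0183). From fetal to weaned stomachs Gfap (0.91) and Scn7a (0.81) were higher, both on both scales, while Sox10, which glia keep, was lower by -2.54.

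**Figure D4:**
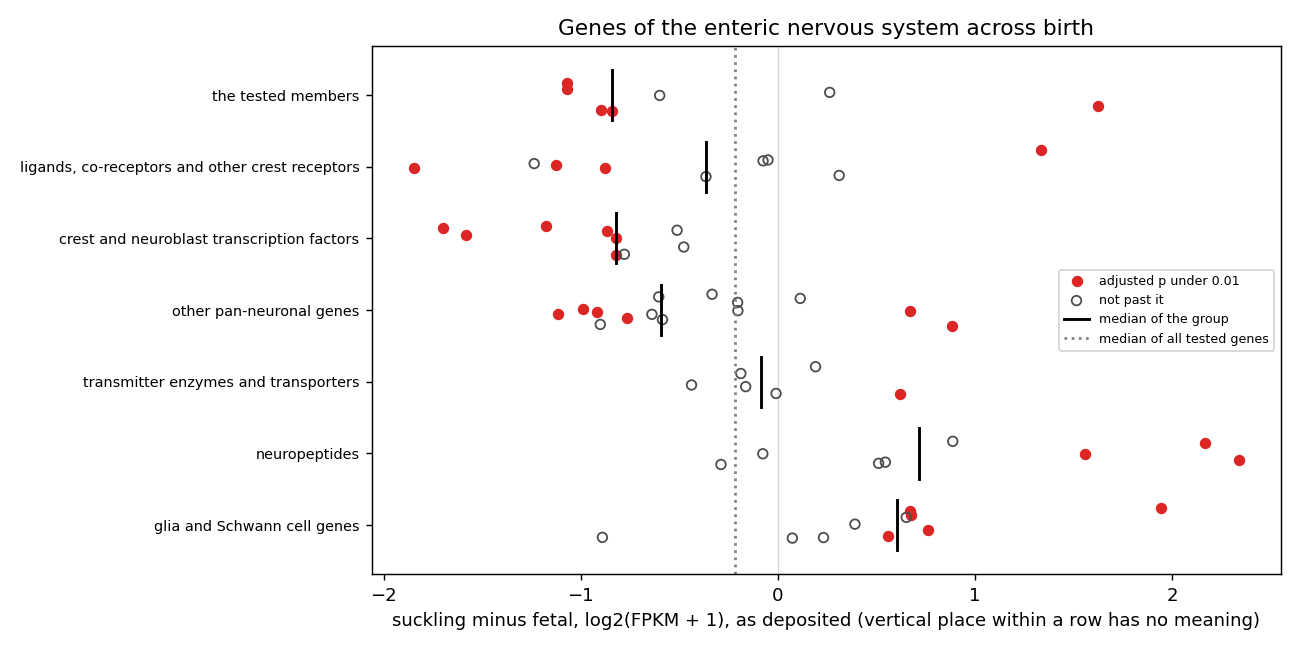
Difference between suckling and fetal stomachs in mean log2(FPKM + 1), as deposited (horizontal axis), for the 7 tested genes and the tested genes of the 6 lists (rows); filled points passed the adjusted p of 0.01, black bars are medians of a row and the dotted line is the median of all tested genes, -0.22. Neuropeptide and glial genes lie mostly above this line and transcription factors below it.

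Markers of other cells moved over the same stages. The summed FPKM of 5 smooth muscle genes was 1111 to 5243 in fetal, 3236 to 8373 in suckling and 1554 to 6002 in weaned samples, that of 6 epithelial genes 288 to 1180, 2284 to 20030 and 107523 to 174578, and that of 4 tuft cell genes, a cell type that makes Chat, 12.1 to 22.4, 11.8 to 46.4 and 58.6 to 79.1. Within the epithelial list Pgc alone measured 86122.5 to 151321 in weaned samples, and Atp4a, Muc5ac and Gkn1 rose too. The mean of Cdh1 went from 77.7 in fetal to 139 in weaned samples and that of Epcam from 122 to 86.0. Within the tuft cell list Avil went from a mean of 1.27 in fetal to 62.5 in weaned samples, Trpm5 from 11.9 to 2.21, Dclk1 from 3.10 to 2.09 and Pou2f3 from 0.508 to 0.868. The 3 marker genes of interstitial cells of Cajal summed to 39.9 to 67.9, 43.6 to 59.4 and 20.3 to 26.1. The 6 skeletal muscle genes, a tissue that makes Nos1, summed to 3.65 to 64.8, 54.4 to 93.3 and 11.2 to 96.8. Their part in the results for the 8 genes was not tested. The study's methods name liver as the source of the RNA while the labels name stomach: 6 genes of stomach identity summed to 854 to 36650, 51868 to 124612 and 32891 to 42261 FPKM, and 5 liver genes to 32.0 to 248, 259 to 1170 and 1468 to 2397. In the weaned samples Apoa1 alone measured 1259, 2270 and 2125 FPKM, while Alb was at 65.4, 0.869 and 0.672, Serpina1a at 0.384 to 4.25 and Afp at 0.376 to 1.19. Alb was highest at D1, with 461 FPKM.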

How the data were processed

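Whole-stomach RNA-Seq of 15 timepoints (1 sample each) was analysed as values per gene. The authors deposited FPKM with lower and upper bounds. The paper's methods name FastQC, HISAT2 on GRCm38 and StringTie with GENCODE, the submitters' processing notes name Bowtie 0.12.2 and FastQC, and the tables look like Cufflinks output with RefSeq-style gene IDs. Read counts were not used, and depth was read from entries whose bounds match 1 fragment. FPKM weights each gene by the total of its sample, so a rise of a few abundant genes lowers all others.

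Here the FPKM of entries sharing a symbol were summed (each of the 8 genes has 1 entry). Genes that reached 1 FPKM in any sample were tested on log2(FPKM + 1) with limma 3.58.1 (R 4.3.3): a moderated F test over 3 stages, contrasts, and a slope over fetal days, with Benjamini-Hochberg adjustment over 16902 genes and a threshold of 0.01. A difference on this scale understates the change of low genes. The script was tested on simulated data. Single genes were compared by exact permutation tests. Python 3.11.15, pandas 2.3.3 and matplotlib 3.10.9 were used for the rest.

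The 8 genes and all lists were chosen with earlier results of these data known. Named genes were the 8, their 3 most similar genes by Pearson r, and from each list the 2 most abundant and the 2 called genes with the largest difference across birth. Gdnf, Edn3, Slc18a3, Slc5a7, Snap25, Syp, Npy, Elavl2, Elavl3, Syt1, Gfap, S100b and the markers of other cells were added after their values were seen. Some genes that this rule names are not reported here. Alternatives covered pseudocounts, filters, scaling, stage limits and each timepoint left out. Positions are counted from 1. Proteome data were not analysed here.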

Additional observations from a re-analysis of the deposited data

How the results depend on the processing

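No alternative turned the direction of a tested difference of the 8 genes. Counts of all genes lower or higher in weaned against suckling stomachs moved most: from 5312 to 8720 at an adjusted p under 0.05, 3457 after median-ratio scaling, 2336 after quantile normalization and 2568 with W3 among the suckling timepoints. Of the 8 genes, 6 were called there, and 3 after quantile normalization or with W3 moved. For the fetal slope 4 were called, and 2 with a pseudocount of 0.1, 1 with no filter on FPKM and 2 after median-ratio scaling. With each timepoint left out in turn, called members were 5 to 7 by the F test, 3 (without W2) to 5 across birth, 4 to 6 across weaning, 5 to 6 between the outer stages and 0 (without E18.5) to 3 for the slope. Called genes were 10035 to 11966, 5089 to 8299, 1528 (without W6; 3287 without W8) to 6158, 9498 to 11349 and 4230 (without E13.5; 4364 without E12.5) to 5906. By exact permutation test, members with p under 0.05 were 5 to 7, 6 to 7 and 5 to 7. Of single calls, 57 were lost and 6 gained, mainly for Ret and Nos1, and the cause was not tested. Leaving out a timepoint cannot move a mean log2 ratio by more than its SD, so that check could not test the ratios. Each gene's first entry is its only one. No paired analysis was possible because the labels carry no replicate numbers. Depth limits Chat most.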

Other observations

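At E17.5 the values of Sox10, Ret, Elavl4, Tubb3 and Nos1 lay below those of both neighbouring ages, as did 30.0% of all tested genes. After scaling the same held for these 5 and for Ednrb. At D1 Ret, Elavl4, Nos1 and Chat lay below both neighbours on both scales, along with 39.6% of tested genes as deposited and 33.4% after scaling. Each age has 1 sample, so differences between animals and between ages cannot be told apart here.

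For each gene, the 3 symbols with the most similar course over the 15 timepoints are given as a description; all share the same samples and the same overall decline of FPKM. Sox10 ran closest to Ttc28, Apbb1 and Sfrp1 (Pearson r = 0.992, 0.991 and 0.988), Ret to Faxc, Nrp2 and Cacng7 (0.994, 0.991 and 0.990), and Ednrb to Col9a2, Sar1a and R74862 (0.994, 0.993 and 0.992). Elavl4 ran closest to Gng2, Cep112 and Tulp1 (0.991, 0.987 and 0.987) and Tubb3 to Prkar1b, Fam171a1 and Lrrc4b (0.994, 0.991 and 0.990). Those of Nos1 were Atl3, Pros1 and 4833424O15Rik (0.951, 0.946 and 0.944), and those of Chat were Prrg1, Lekr1 and Vps45 (0.889, 0.879 and 0.876). Vip ran closest to Eef1a2, Cr1l and Grp (0.964, 0.949 and 0.944). After scaling, 13 of these 24 were still among the 3 most similar, Grp and Eef1a2 for Vip among them.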
